A study of Mus musculus with 12 samples.

Results

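The response to the RheoSwitch ligand that inducible and parental 3T3 fibroblasts had in common was measured on all 12 arrays of the series. For each gene, the mean RSL effect was the average of the log2 fold change (RSL over DMSO) in the inducible cells and that in the parental cells. A gene was called shared when this mean effect passed an adjusted p of 0.05 in limma, when the change had the same sign in both lines, and when each line reached an unadjusted p of 0.05 on its own. Of 16475 probe sets tested, 96 were shared, which is 0.583% of all: 43 were higher (0.261%) and 53 were lower (0.322%) on the arrays labelled RSL. Of these, 95 had a gene symbol. NIH 3T3 is an established line of mouse embryonic fibroblasts. The inducible cells, named 3T3-ind-IER2 #11 by the study and Klon11 in the labels, are 1 clone of NIH 3T3 cells transfected with pNEBR-R1 and pNEBR-Ier2-hygro. The parental cells are labelled NIH 3T3, with no plasmid named. Each line received 200 nM RSL-1 (hereafter RSL) or the matching volume of DMSO, its solvent, and was harvested after 24 h, giving 3 arrays for each of the 4 groups. A single growth protocol, with serum, G418 and hygromycin in the medium, is given for all samples.

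In the RheoSwitch system, a fusion protein built on the insect ecdysone receptor binds the diacylhydrazine RSL and, with a partner derived from the retinoid X receptor, drives the gene placed behind its response elements. Mammalian cells have no ecdysone receptor, and an insect hormone receptor was chosen so that the ligand would meet few targets of its own in them. The comparison asked which genes moved in the same direction in both lines when the ligand was given. Whether the parental cells carry any part of the switch is not stated, so a need for it was not tested. Ier2, the immediate-early gene placed under the switch, was not shared. Its log2 level was 9.07, 9.04 and 8.96 on the inducible DMSO arrays and 8.50, 8.48 and 8.66 on the inducible arrays labelled RSL, and it was 8.60, 8.61 and 8.53 against 8.82, 8.74 and 8.67 in the parental cells. Ier2 was thus lower on all 3 inducible arrays labelled RSL, a log2 fold change of -0.47 against 0.17 in the parental cells, which goes against the induction that the label implies. The sources used here do not give whether the probes cover the inducible construct. Groups are therefore named by their labels, and each direction given here rests on those labels. Median log2 levels were 7.03 to 7.06 on the 12 arrays. The quantile normalization applied by the authors favours such closeness, so it does not show that the arrays were alike. The fibroblast marker list had a mean level of 10.8 to 11.1 on each array. The lists of macrophage, epithelium, endothelium, adipocyte and muscle markers had 6.06 to 6.71. Single markers overlapped: averaged over all arrays, fibroblast markers ran from 7.46 to 13.6 and macrophage markers from 5.66 to 8.89.

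The promoters of 5 of the shared genes on which the results turn are shown as the 250 bases before the transcription start, read 5′ to 3′ on the gene's own strand, from RefSeq on the build GRCm38.p6. They were chosen to set the gene with the smallest p in the stricter test of both lines (Zfand2b), the 2 largest shared rises (Igfbp7 and Adm) and the 2 largest shared falls (Agtr2 and Jun) beside each other. Capitals mark every match, on either strand, to one of the 11 short motifs searched. In Zfand2b (chr1:75168396-75168645, plus strand) the XRE core GCGTG, the letters that the aryl hydrocarbon receptor binds, begins 78 bases before the start. In Igfbp7 (chr5:77408046-77408295, minus strand) the same letters begin 187 bases before the start. Adm (chr7:110627407-110627656, plus strand) holds the XRE core at 90 and 54 bases before the start, the antioxidant element TGACNNNGC at 58, which overlaps the second of these, and the CHR element TTTGAA of cell cycle genes at 246. Agtr2 (chrX:21484374-21484623, plus strand) has a CHR element at 174 and a CCAAT box at 156, and Jun (chr4:95052223-95052472, minus strand) has a CCAAT box at 65.
Zfand2b: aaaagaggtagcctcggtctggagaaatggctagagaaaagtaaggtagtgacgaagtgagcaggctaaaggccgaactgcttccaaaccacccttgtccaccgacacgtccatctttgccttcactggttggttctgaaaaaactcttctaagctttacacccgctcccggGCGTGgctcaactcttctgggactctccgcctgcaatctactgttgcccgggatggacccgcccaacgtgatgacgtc
Igfbp7: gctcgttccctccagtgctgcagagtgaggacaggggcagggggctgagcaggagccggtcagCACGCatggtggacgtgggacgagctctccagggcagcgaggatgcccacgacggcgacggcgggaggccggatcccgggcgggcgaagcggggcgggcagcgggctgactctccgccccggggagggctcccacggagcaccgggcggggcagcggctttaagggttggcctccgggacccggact
Adm: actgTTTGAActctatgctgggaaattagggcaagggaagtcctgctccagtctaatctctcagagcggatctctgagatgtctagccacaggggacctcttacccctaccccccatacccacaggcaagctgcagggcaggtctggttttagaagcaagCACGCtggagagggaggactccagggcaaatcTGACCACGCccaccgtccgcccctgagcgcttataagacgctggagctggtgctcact
Agtr2: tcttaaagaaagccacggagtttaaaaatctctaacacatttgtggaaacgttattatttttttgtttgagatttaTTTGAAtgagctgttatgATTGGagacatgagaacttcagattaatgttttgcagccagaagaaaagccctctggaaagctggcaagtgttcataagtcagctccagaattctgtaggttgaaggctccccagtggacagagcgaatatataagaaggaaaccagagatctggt
Jun: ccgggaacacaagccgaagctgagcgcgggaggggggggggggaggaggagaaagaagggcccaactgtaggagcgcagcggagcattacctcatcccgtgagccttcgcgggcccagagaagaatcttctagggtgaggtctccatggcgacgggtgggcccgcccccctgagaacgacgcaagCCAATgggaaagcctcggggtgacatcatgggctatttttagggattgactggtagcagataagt

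The same letters were common in promoters at large. The XRE core was held by 46.5% of the 43 windows of shared higher genes and by 39.3% of the 61 windows of shared lower genes, beside 39% of all 15838 windows searched, and the CCAAT box by 27.9% and 32.8% beside 34.8%. The antioxidant element was held by 18.6% of windows of higher genes, 6.56% of those of lower genes and 11.3% of all. The AP-1 site TGANTCA, which dimers of Jun bind, was found in 2.33%, 3.28% and 5.64% in the same order. The nuclear receptor core motif AGGTCA was found in 6.98%, 6.56% and 12.2%, and the CRE TGACGTCA in 4.65%, 3.28% and 2.21%. The remaining shares in that order were 14%, 9.84% and 11.6% for the CHR element, 4.65%, 8.2% and 7.57% for the E-box CACGTG, 4.65%, 8.2% and 7.56% for the EGR site GCGNGGGCG, 0%, 3.28% and 0.631% for the ATF4 site TTGCATCA, and 0%, 0% and 1.04% for the sterol element TCACNCCAC. Windows were found for 34 of the 42 named higher genes and 45 of the 53 lower genes, and some genes had more than 1 window. A match gives letters only and says nothing of binding.

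The shared response was small. Mean effects of the 96 genes lay between 0.09 and 0.45 in size on the log2 scale, or 1.07-fold to 1.37-fold, with a median size of 0.15, and 18 of them (14 higher, 4 lower) reached 0.2. For the 43 higher genes the median log2 fold change was 0.19 in the inducible cells and 0.13 in the parental cells, and for the 53 lower genes it was -0.16 and -0.13. The change was larger in the inducible cells for 71 of the 96 genes and larger in the parental cells for 25. The typical standard error was 0.028 for a mean effect and 0.040 for the effect in one line. The shared genes were also well expressed: their median level was 8.56 against 7.04 for all probe sets, and 6 of them lay below that overall median. In these bulk cultures, a change in the number of cells that express a gene and a change in the level per cell cannot be told apart.

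The 96 genes came out of 214 called for the mean effect by limma (1.3% of all tested), of which 113 were higher (0.686%) and 101 lower (0.613%). When each array's median was subtracted first, this split was 83 higher and 113 lower, and when quantile normalization was repeated, 78 of 138 shared genes were higher. Of the 214, 190 had the same sign in both lines, and 94 of these fell short of the unadjusted threshold in one line, 88 of them in the parental cells. The other 24 had opposite signs. Counted the other way, 57 of the 96 shared genes were among the 418 called in the inducible cells alone, and Zfand2b and Hnrnph3 were among the 5 called in the parental cells alone. Over all probe sets, the changes in the 2 lines had the same sign for 54.3%, and their correlation across probe sets, which are not independent replicates, was 0.11. By the same kind of rule, 39 genes (0.237%) moved in opposite directions, with an adjusted p under the threshold for the difference and an unadjusted one in each line. The plot of both lines' effects shows the shared genes in opposite corners of the cloud of all probe sets. The rule for a shared gene fixes this place in advance, so nothing is drawn from it.

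**Figure D1:**
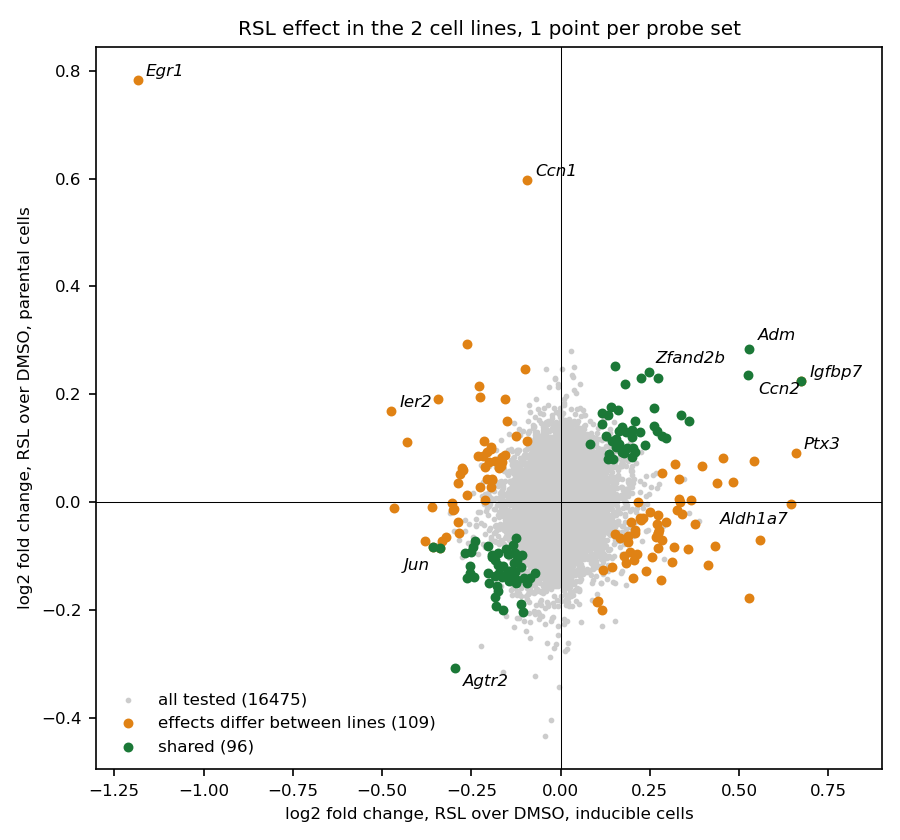
Log2 fold change, RSL over DMSO, in inducible cells (x axis) and parental cells (y axis), with 1 grey point for each of 16475 probe sets, the 96 shared ones in green and the 109 whose effects differed between the lines in orange; the 3 genes in both sets are drawn green. Igfbp7, Adm and Ccn2 stand out at the upper right and Agtr2 at the lower left, while Egr1 and Ier2 lie at the upper left, lower in inducible cells and higher in parental ones.

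Genes of secreted proteins had the largest shared rises. Igfbp7, Adm and Ccn2 rose most, by 1.37-fold, 1.33-fold and 1.30-fold on average over both lines. Igfbp7, whose secreted product binds insulin-like growth factors and the matrix, was at 8.14, 8.07 and 8.08 under DMSO and 8.74, 8.81 and 8.75 under RSL among inducible arrays, and at 7.95, 7.97 and 7.99 against 8.16, 8.10 and 8.33 in the parental cells. The groups did not overlap in either line, and the rise was larger in the inducible cells. Its mean effect was 0.45 (standard error 0.03, adjusted p = 6.91e-06 in limma), with 0.67 in the inducible and 0.23 in the parental cells. Adm, which encodes the vasodilator peptide adrenomedullin, was at 9.99, 10.03 and 9.98 against 10.48, 10.59 and 10.51 among inducible arrays and at 8.61, 8.80 and 8.65 against 9.29, 8.85 and 8.77 in the parental cells. In the parental cells 1 RSL array stood well above the rest and the lowest lay below the highest DMSO array, so there the groups overlapped. Its mean effect was 0.41 (standard error 0.06, adjusted p = 0.00407 in limma). Ccn2, connective tissue growth factor, was at 11.14, 11.15 and 11.11 against 11.65, 11.62 and 11.71, and in the parental cells at 10.99, 11.15 and 11.13 against 11.44, 11.33 and 11.20. All RSL arrays were above all DMSO arrays of their line, for a mean effect of 0.38 (standard error 0.04, adjusted p = 0.000119 in limma).

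**Figure D2:**
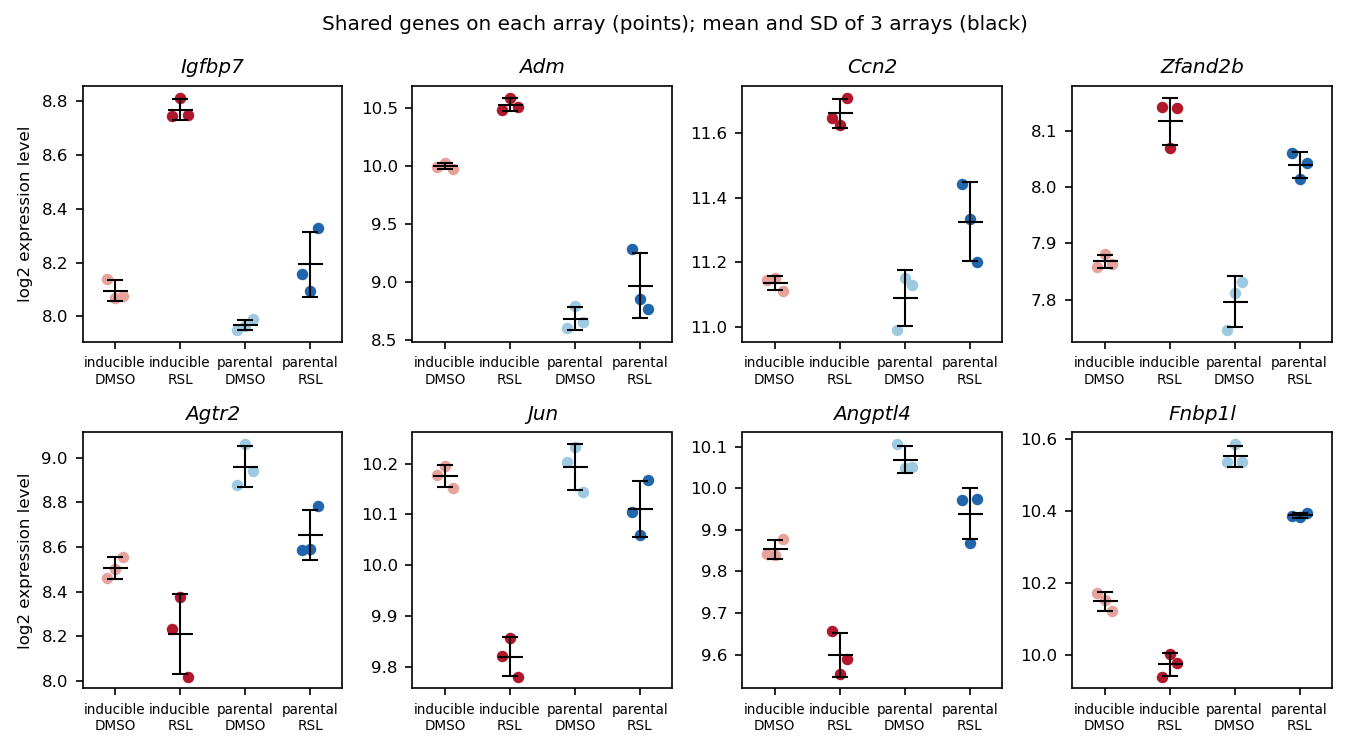
Log2 expression level of 8 shared genes on each of the 12 arrays (points, coloured by group), with the mean and SD of the 3 arrays of each group in black. RSL points lie above DMSO points for the upper row and below for the lower row, except where Adm and Jun overlap in the parental cells.

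Zfand2b rose by nearly the same amount in both lines. It encodes an AN1-type zinc finger protein tied to the proteasome and was the 1 gene to pass the stricter test in which each line had to carry the evidence alone (adjusted p = 0.0376 in limma, with 204 genes at an unadjusted p under 0.05). Its level was 7.86, 7.88 and 7.86 under DMSO and 8.14, 8.07 and 8.14 under RSL in the inducible cells, and 7.75, 7.81 and 7.83 against 8.06, 8.01 and 8.04 in the parental cells. The groups stood well apart in both lines. The log2 fold changes of 0.25 and 0.24 differed by 0.01 (standard error of this difference 0.05, and of the mean effect 0.02). That single call was lost with the replicate number as a block, with array medians subtracted, with each line fitted alone and in 11 of the 12 fits that each left out 1 array, although Zfand2b remained shared in all 12 of these. Ostf1, an SH3 protein first described in osteoclasts, was nearly as even at 0.27 and 0.23, from 9.72, 9.60 and 9.73 to 9.98, 9.91 and 9.98 in the inducible cells and from 9.49, 9.52 and 9.57 to 9.79, 9.74 and 9.73 in the parental cells. Trp53inp2, an autophagy protein, had 0.22 and 0.23.

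The other genes among the 15 largest rises differed in role. Id3, an inhibitor of helix-loop-helix transcription factors and a target of BMP signalling, was at 10.54, 10.52 and 10.54 against 10.89, 10.90 and 10.90 in the inducible cells. In the parental cells it was at 10.48, 10.60 and 10.71 against 10.81, 10.71 and 10.71, so the groups met there, and the log2 fold changes were 0.36 and 0.15. Mgst1, a microsomal glutathione transferase, had 0.34 and 0.16, and Akr1c18, a hydroxysteroid dehydrogenase that inactivates progesterone, had 0.15 and 0.25. Akr1c18 was among the 9 higher genes whose change was larger in the parental cells, where it went from 7.50, 7.51 and 7.53 to 7.90, 7.70 and 7.70. Slpi, a secreted protease inhibitor, had 0.26 and 0.17, and Tm7sf2, a sterol reductase of cholesterol synthesis, had 0.29 and 0.12. Angpt1, the ligand of the Tie2 receptor, and Cxcl1, a neutrophil chemokine, had 0.28 and 0.12, and 0.26 and 0.14. Arhgap24, a GTPase activator that acts on Rac, had 0.27 and 0.13. Edn1, which encodes endothelin 1, had 0.18 and 0.22.

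The shared genes were sorted by role after their values were seen, and without a test. For no role, here or among the lower genes below, was the share among all probe sets counted. A count of a role therefore shows no excess. Of the 43 higher genes, 10 encode secreted proteins, with mean effects of 0.13 to 0.45 and a median of 0.20. To those already named this adds Sema3c, a guidance cue, at 0.15, Bmper, which binds BMPs, at 0.13, and Olfml2b at 0.14. Another 13 encode regulators of transcription and signalling, at 0.09 to 0.26. Among them, Hes1, a repressor downstream of Notch, was at 0.16, Smad6, an inhibitory Smad of the BMP pathway, at 0.13, Met, the receptor of hepatocyte growth factor, at 0.17, Crtc3, a coactivator of CREB, at 0.16, and Zfp36l2, which speeds the decay of AU-rich mRNAs, at 0.14. The rest of that group were Phf13 and Ier5l at 0.18, Amotl2 at 0.14, Ctdsp1 at 0.13, Cd14 at 0.12 and Hbp1 at 0.09. Genes of 7 enzymes of metabolism and sugar chains lay at 0.16 to 0.25: Fut8, which adds core fucose to glycoproteins, and Haghl at 0.17, and Galnt1, which starts mucin-type sugar chains, and Gclm, the modifier subunit of the first enzyme of glutathione synthesis, at 0.16. Other intracellular and membrane proteins, 11 genes at 0.11 to 0.25, added Tmem106b at 0.15, Gpnmb and Fibp at 0.14, Cdan1, Casq2 and, at 0.11, Fbxo6, Card19 and Hdac6, the tubulin deacetylase. Igkv6-15, an immunoglobulin light chain segment, was at 0.15 but lay below the first quartile of levels on all arrays, and the gene with no symbol was at 0.15.

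Agtr2 had the largest shared fall, of nearly the same size in both lines. This gene of the type 2 angiotensin receptor was at 8.46, 8.50 and 8.56 under DMSO and 8.23, 8.38 and 8.02 under RSL among inducible arrays, and at 8.88, 9.06 and 8.94 against 8.59, 8.59 and 8.78 in the parental cells. No RSL array reached a DMSO array of its line. The log2 fold changes were -0.30 and -0.31, for a mean of -0.30 (standard error 0.05, adjusted p = 0.00784 in limma), or 1.23-fold lower. Jun, a subunit of the AP-1 transcription factor, was at 10.18, 10.20 and 10.15 against 9.82, 9.86 and 9.78 in the inducible cells, a fall of all 3 arrays. In the parental cells it was at 10.20, 10.23 and 10.14 against 10.11, 10.06 and 10.17, and these groups overlapped. Its log2 fold changes were -0.36 and -0.08 (mean -0.22, adjusted p = 0.00045 in limma), and the difference between them passed as well (adjusted p = 0.0197 in limma). Fnbp1l, which links membrane curvature to actin assembly, fell by nearly the same amount in both lines, from 10.17, 10.15 and 10.12 to 9.94, 10.00 and 9.98 and from 10.54, 10.59 and 10.54 to 10.39, 10.38 and 10.39. These are log2 fold changes of -0.18 and -0.16 with no overlap.

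The other genes among the 15 largest falls also differed in role. Col6a3, a chain of collagen VI, had log2 fold changes of -0.24 in inducible and -0.14 in parental cells, Ccbe1, a secreted protein needed for lymphatic growth, -0.25 and -0.12, and Ltbp1, which holds latent TGF-beta in the matrix, -0.20 and -0.15. Cd44, the hyaluronan receptor, had -0.25 and -0.09. Angptl4, an inhibitor of lipoprotein lipase and a PPAR target, was at 9.84, 9.84 and 9.88 against 9.66, 9.55 and 9.59, and in the parental cells at 10.11, 10.05 and 10.05 against 9.97, 9.87 and 9.97, with no overlap. Foxc2, a forkhead transcription factor, had -0.26 and -0.14, and Arhgap22, another GTPase activator for Rac, -0.34 and -0.08. Anxa5, a calcium-dependent binder of phospholipids, had -0.18 and -0.19, where 1 parental DMSO array, at 11.95, stood above the other two at 11.64 and 11.70. Its shared call held in 4 of the 12 fits that each left out 1 array, as did that of Emp1, an epithelial membrane protein, at -0.20 and -0.13. Fnip1, a partner of folliculin, at -0.16 and -0.20, remained shared in 2 of them. Akap2, an anchor of protein kinase A, had -0.27 and -0.09, and Pttg1ip -0.18 and -0.17.

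**Figure D3:**
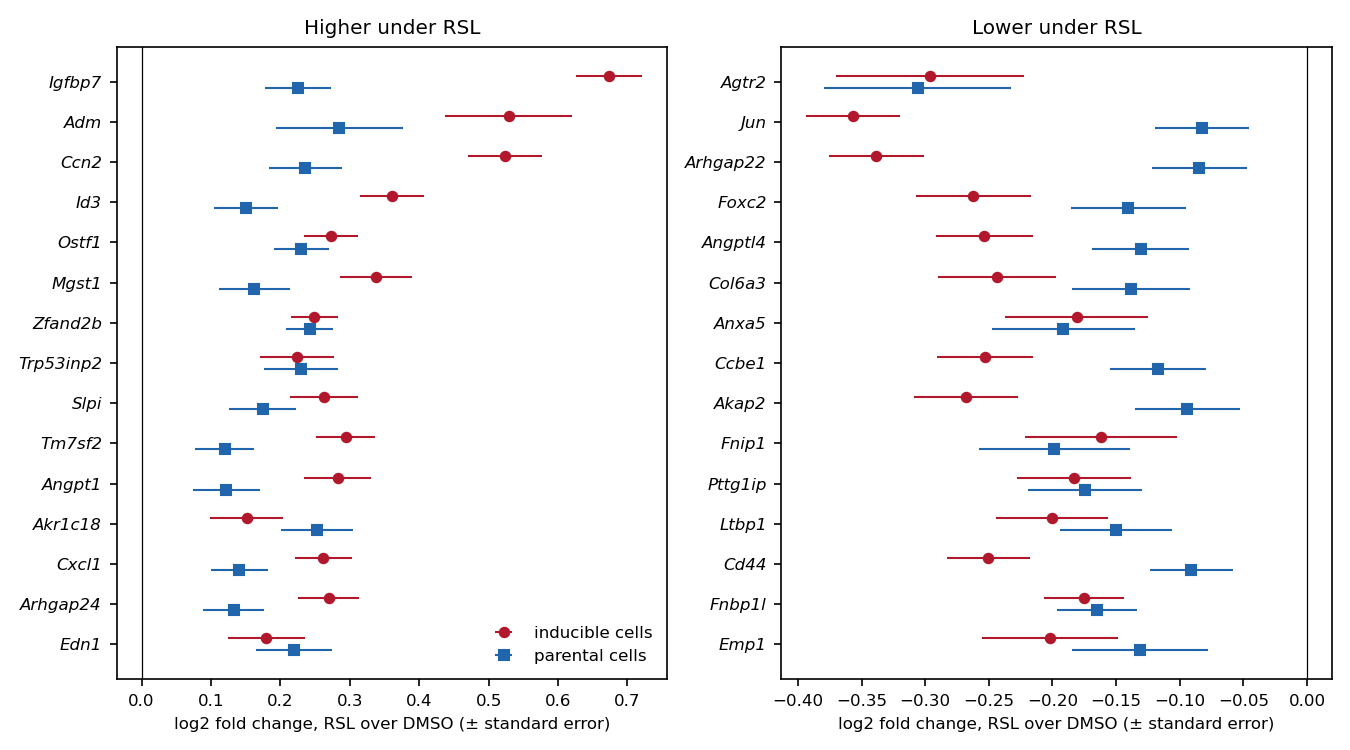
Log2 fold change, RSL over DMSO (x axis, bars are the standard error from the fit), of the 15 named shared genes with the largest rise (left) and fall (right), in inducible cells (red circles) and parental cells (blue squares). The lines nearly coincide for Zfand2b, Trp53inp2, Agtr2, Pttg1ip and Fnbp1l and lie apart for Igfbp7, Jun and Arhgap22.

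The 53 lower genes, again sorted by role after their values were seen, included 6 of matrix and secreted proteins at -0.19 to -0.13, among them Htra1, a secreted serine protease, at -0.14 and Vcan, the proteoglycan versican, at -0.13. Another 6 of surface receptors and adhesion proteins lay at -0.30 to -0.11 and added Itga6, an integrin of laminin binding, at -0.16, Sema5a at -0.15 and Pcdhb21 at -0.11. All 7 DNA-binding regulators fell more in the inducible cells, as did 37 of the 53 lower genes. The medians of these 7 were -0.18 in inducible and -0.10 in parental cells. Besides Jun and Foxc2 these were Jdp2, a dimer partner of Jun, at -0.16, Bnc2 at -0.15, Zfhx3 at -0.14, Xbp1, a driver of the unfolded protein response, at -0.13 and Sox9 at -0.10. Genes of cell division, DNA synthesis and repair numbered 5, with Cenpw, a centromere protein, at -0.15, Prc1, which bundles spindle microtubules in cytokinesis, and Pola1, the catalytic subunit of DNA polymerase alpha, at -0.14, and Aspm and the mismatch repair gene Msh6 at -0.12.

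RNA-binding proteins gave 3 lower genes. Hnrnph3, a splicing factor of the hnRNP H family, had -0.11 in inducible and -0.20 in parental cells. It was called for the effect in parental cells (adjusted p = 0.0421 in limma), and Ddx17 and Rbm12 were at -0.12. The endoplasmic reticulum and secretory route gave 5: Serpinh1, the collagen chaperone, at -0.15, Ktn1 and Vma21 at -0.13, and the cargo lectins Lman2l and Lman2 at -0.11 and -0.10. Serpinh1, like Hnrnph3, moved more in the parental cells, at -0.11 and -0.19. Cytoskeletal, membrane and scaffold proteins gave 9, which besides those named were Stxbp4 at -0.17, Septin9 at -0.16, Plekha1 at -0.15, Anks1b at -0.11 and the caveolar protein Cavin2 at -0.11. Metabolism and mitochondria gave 4: Crabp1, a binder of retinoic acid, and Gpt2, an alanine aminotransferase, at -0.15, Timmdc1 at -0.14 and Slc25a37, an iron importer of mitochondria, at -0.12. The remaining 8 were Fnip1, Pttg1ip, Jpt2 at -0.15, the chaperone Hspa4 at -0.14, B330016D10Rik at -0.13, Ankrd12 and 2700097O09Rik at -0.12, and Parp8 at -0.10.

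Read array by array, the RSL arrays lay entirely on one side of the DMSO arrays in both lines for 75 of the 96 shared genes, 32 higher and 43 lower. Over all probe sets this was so for 294, or 1.78%. The call itself used these arrays, so nothing is drawn from the count. A two-sided exact permutation test within the lines gave 0.005, the smallest p that 400 arrangements allow, for 75 genes and at most 0.015 for the rest. The genes were chosen by the same effect on the same arrays, so small values were bound to follow and nothing is drawn from them. In the heat map of all shared genes, the inducible RSL arrays carry the stronger colour.

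**Figure D4:**
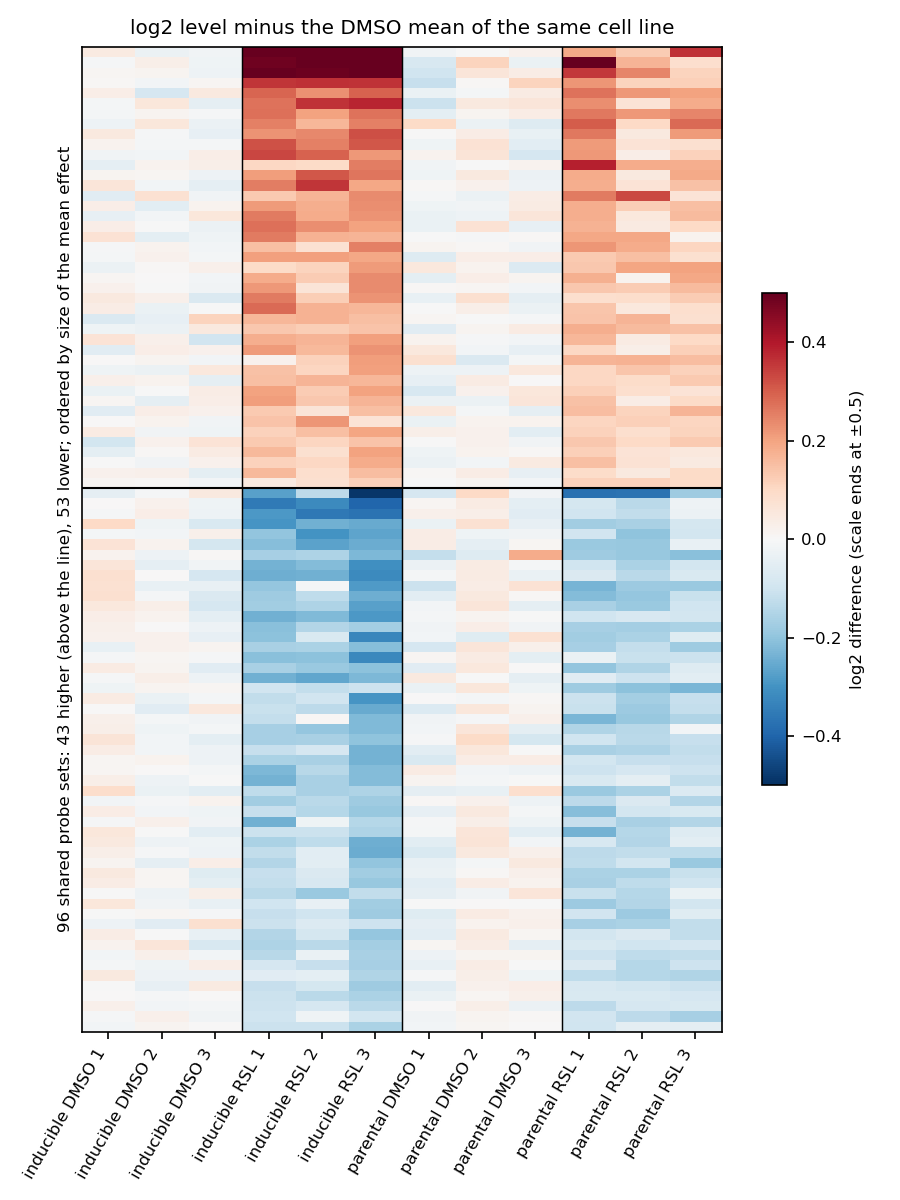
Each of the 96 shared probe sets (rows, 43 higher above the line and 53 lower below it, ordered by size) on each of the 12 arrays (columns), as the log2 level minus the mean of the DMSO arrays of the same line, on a colour scale that ends at 0.5 in either direction. The RSL arrays of both lines are red above and blue below the line, more deeply in inducible cells, and inducible RSL replicate 3 is among the deepest.

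How many genes counted as shared depended on single arrays. Fits that each left out 1 array gave 42 to 153 shared genes. The count was 48 without inducible DMSO replicate 1, 51 without inducible DMSO replicate 2, and 56, 147 and 54 without inducible RSL replicate 1, 2 and 3. Without parental DMSO replicate 1, 2 and 3 it was 153, 62 and 52, and without parental RSL replicate 1 it was 42. Of the 96 genes, 33 (19 higher, 14 lower) stayed shared in all 12 fits, among them Igfbp7, Adm, Ccn2, Id3, Ostf1, Mgst1, Zfand2b, Agtr2, Foxc2 and Fnbp1l. Another 47 were shared in at most 6 of them, and Hbp1 and Lman2 in none. The direction in each line was kept by all 96 in all 12 fits, which the choice of these genes for effects of one sign favours. At the edge of the call, Hdac6 (0.11, adjusted p = 0.0481) and Ktn1 (-0.13, adjusted p = 0.0498) lay just inside and Snx7, a sorting nexin (0.10, adjusted p = 0.0508), and Hpf1, a partner of PARP enzymes (-0.11, adjusted p = 0.0519), just outside, all in limma.

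Igfbp7, Jun and Arhgap22 were the 3 shared genes whose 2 line effects also differed by limma's test, which called 109 probe sets (0.662%). Arhgap22 fell by 0.25 more in the inducible cells (adjusted p = 0.0366 in limma). For the other 93 shared genes the difference did not pass, which does not show that the lines responded alike. Several genes with a large mean effect were not shared because the parental cells did not meet the conditions of sign and unadjusted p. Missing these does not show that such genes had no effect there. Jun and Arhgap22, both shared, had -0.08 in the parental cells. Ptx3, a soluble pattern recognition protein, had 0.66 in inducible and 0.09 in parental cells, Aldh1a7, an aldehyde dehydrogenase, 0.64 and 0.00, Tmem119, a membrane protein of bone-forming cells, 0.54 and 0.08, Eno3, the muscle enolase, 0.46 and 0.08, and Aspn, a small leucine-rich proteoglycan, 0.48 and 0.04. In each of these 5 the difference passed the same test. Ccn1, a relative of Ccn2, showed the reverse, with -0.09 in inducible and 0.60 in parental cells, so these 2 matricellular genes differed in how far they were shared.

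In gene lists of known pathways, few members were shared, and most medians stayed near the 0.01 of all probe sets. The counts of each list stand beside the 0.686% called higher and the 0.613% called lower among all probe sets. SRF and YAP target genes gave the most shared rises: of 22 measured, 4 were called higher and 1 lower for the mean effect, and Ccn2, Edn1 and Amotl2, a scaffold that binds YAP, were shared. Their list median was 0.02. Of 30 immediate-early genes, the early targets of growth factor signalling to which Ier2 belongs, 1 (Dusp1, a phosphatase of MAP kinases) was called higher and 4 lower, and Jun was shared. This list moved apart in the 2 lines, with a median of -0.11 in inducible and 0.06 in parental cells, and 27 of its 30 members lay above 0 in the parental cells, beside 55.6% of all probe sets. Of 28 genes of the LXR, PPAR and retinoid receptors, which pair with the retinoid X receptor, and their targets, 3 were called higher, Lpcat3, Mylip and Fabp4, and 1 lower, Angptl4, which alone was shared. Of 31 genes of xenobiotic metabolism and aryl hydrocarbon receptor targets, Aldh1a7 was called and none was shared, with a median of 0.02. Of 22 NRF2 and glutathione genes, Gclm was called and shared, with log2 fold changes of 0.18 and 0.13.

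Of the lipid synthesis genes that were called, Tm7sf2 was the 1 shared. Of 17 genes of cholesterol synthesis and uptake, 4 were called higher for the mean effect, Tm7sf2, Mvd, Dhcr7 and Stard4, while the list median was 0.13 in inducible and -0.01 in parental cells. Of 20 genes of fatty acid synthesis, Lpin1 and Fasn were called and none was shared, with medians of 0.10 and 0.01. The lists with the lowest medians of the mean effect were those of the stress response and mitosis. Of 40 genes of the unfolded protein and integrated stress response, Cth and Xbp1 were called lower, Xbp1 was shared, the medians were -0.05 and -0.05, and 23 members were below 0 in both lines. Of 54 genes of mitosis and cytokinesis, Prc1 and Aspm were called lower and shared, the medians were -0.03 and -0.04, and 31 were below 0 in both lines. Over all probe sets, 23.3% were below 0 in both. These lists were not tested, and members of a pathway are not independent of each other.

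**Figure D5:**
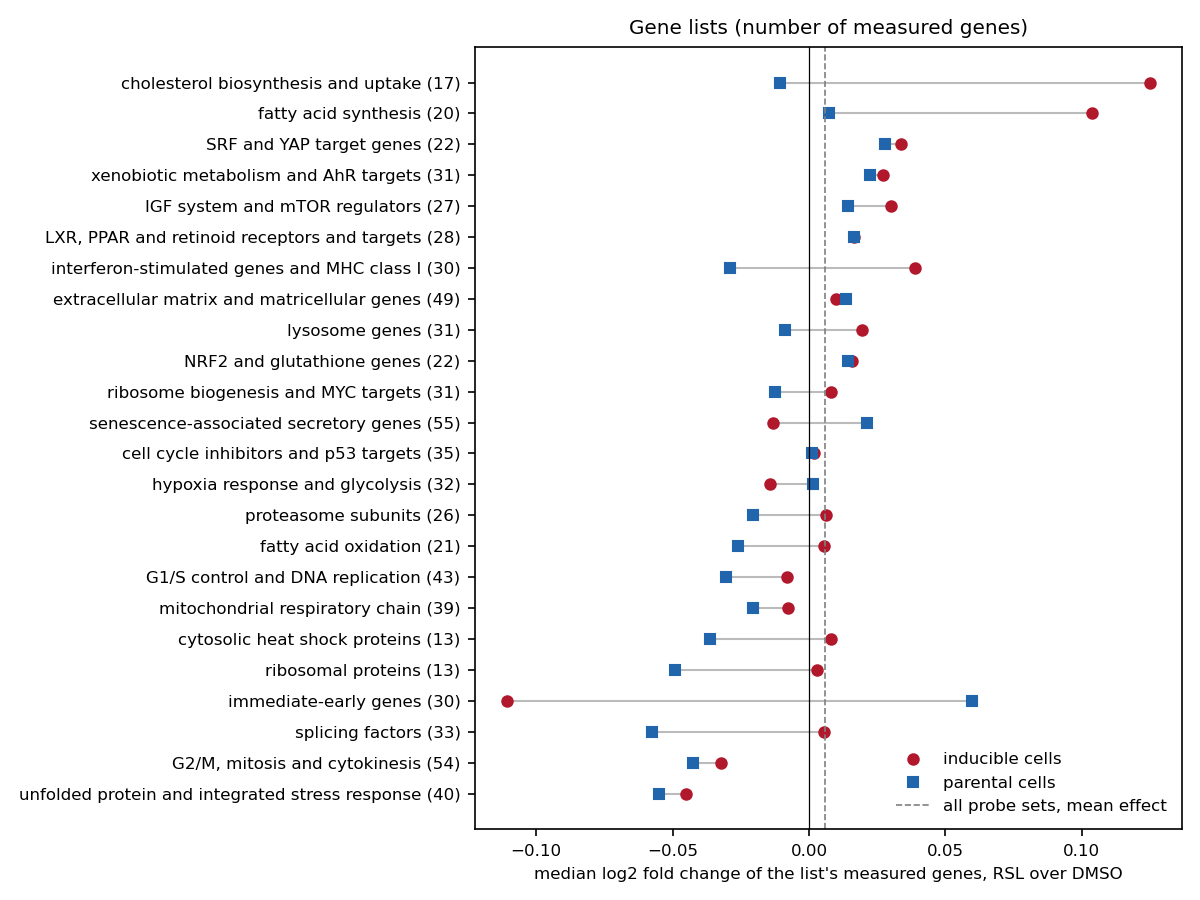
Median log2 fold change, RSL over DMSO (x axis), of the measured genes of 24 lists (number in brackets), in inducible cells (red circles) and parental cells (blue squares), with the median mean effect of all probe sets as a dashed line. The stress response and mitosis lists lie below 0 in both lines, while the immediate-early and lipid synthesis lists differ between them.

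Among the other lists, 43 genes of the G1/S transition and DNA replication gave 1 call, Pola1, which was lower and shared. Of 55 senescence-associated secretory genes, 5 were called higher and 2 lower, and Igfbp7 and Cxcl1 were shared among the higher and Angptl4 among the lower. The 49 extracellular matrix genes split, with 5 higher and 2 lower, of which Ccn2 was shared upward and Col6a3 and Vcan downward. Of 32 genes of hypoxia and glycolysis, Eno3 and Adm were called higher and Ndrg1 lower, and Adm was shared. Igfbp7 was the shared one of the 2 called among 27 genes of the insulin-like growth factor system and mTOR regulators, the other being Deptor, an inhibitor of mTOR, at 0.43 in inducible and -0.08 in parental cells. Tapbp was the 1 call among 30 interferon-stimulated and MHC class I genes and was not shared. No member passed limma's test for the mean effect in the lists of cell cycle inhibitors and p53 targets, fatty acid oxidation, heat shock proteins, ribosomal proteins, ribosome biogenesis, splicing factors, the respiratory chain, the proteasome or the lysosome. Of the 242 genes in these 9 lists, 38, or 15.7%, had an unadjusted p under 0.05 (14 higher, 24 lower), near the 13.2% of all probe sets. That pooled share does not speak for each list. In parental cells, 3 of 33 splicing factors and 1 of 13 heat shock proteins lay above 0, beside 55.6% of all probe sets. The splicing factor medians were 0.01 in inducible and -0.06 in parental cells, and those of heat shock proteins 0.01 and -0.04.

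Few markers of other cell types were called. Cd14, the lipopolysaccharide co-receptor counted above, was called among 9 macrophage markers, at 0.13 and 0.12, while Ptprc, Cd68, Adgre1, Csf1r, Itgam, Lyz2, Fcgr1 and Mrc1 were not. Fabp4 was called among 6 measured adipocyte markers, at 0.27 and 0.03, and was not shared. None of the 10 fibroblast, 8 epithelial, 8 endothelial and 6 muscle markers was called by limma, and 5 of these 32 had an unadjusted p under 0.05, a share of 15.6% near the 13.2% of all probe sets. The 3′ minus 5′ level of the Gapdh control probe sets, a sign of RNA integrity, was -0.19 to -0.14 on all arrays. Its mean shift under RSL had an exact permutation p of 0.665. For the actin control probe sets this level was larger and more spread, at 0.40 to 0.55, and its mean shift had an exact permutation p of 0.335.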

How the data were processed

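Gene expression was measured on 12 Affymetrix mouse arrays, 3 for each combination of cell line (inducible or parental) and treatment (DMSO or RSL), with groups and replicate numbers taken from the sample titles. The authors deposited log2 values of the 12 arrays in a single table. They had annotated the arrays by Entrez gene through a Custom CDF (version 10), corrected the background by RMA and applied quantile normalization. Quantile normalization brings arrays to a common distribution, so a change that reached most genes could be hidden wholly or in part. The deposited values were not fully alike in distribution. Their first quartiles ran from 6.23 to 6.30 and their interquartile ranges from 2.08 to 2.20. That the scale is log2 was read from the values' range, and the sources used here do not give the step that combined the probes of a gene.

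The 64 hybridization controls of 16539 probe sets were left out, and 16475 were tested with no filter on low values. Of these, 15780 carried 1 gene symbol and 695 none, and the latter are counted but not named here. In limma 3.58.1, under R 4.3.3, a linear model gave each of the 4 groups its mean, with moderated variances, and p-values were adjusted over all probe sets by Benjamini-Hochberg with a threshold of 0.05. The scripts were tested on simulated data. Single genes were also tested by a two-sided exact permutation of treatment within each line. Arrays give no molecule counts, so their number limits the precision, and the spread that p-values measure is that between these arrays, which the labels call biological replicates without saying whether they were separate cultures. Motifs were searched in RefSeq promoter windows on GRCm38.p6, 250 bases before each start.

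Members and gene lists were chosen with earlier results of these data known. Named genes were Ier2, the 15 largest shared rises and falls with a symbol, genes past the test in both lines, up to 4 called members of each of the 24 lists with the smallest p, the 6 largest mean effects among genes whose line effects also differed, and the 2 genes just inside and the 2 just outside the threshold. The other shared genes, Ccn1, Egr1 and Cd14 were named, and roles assigned, only once their values had been seen.

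Each result was recomputed with a replicate block over both lines or within each, a filter on the lowest 40% of levels, array weights, a variance trend with intensity, subtraction of array medians, repeated quantile normalization, the methods' one-way analysis of variance with nominal and with adjusted p-values, each line fitted alone, a model with 1 RSL term, other rules for a shared gene and leaving out each array in turn.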

Additional observations from a re-analysis of the deposited data

Results flagged for a closer look

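For 17 of the genes named, the RSL effect differed between the lines by limma's test of the difference itself (inducible minus parental log2 fold change, RSL over DMSO, adjusted over all probe sets). Among the shared genes these were Igfbp7, with a difference of 0.45, Jun with -0.27 and Arhgap22 with -0.25. Ier2, the gene under the switch, had the difference -0.64, from -0.47 in inducible and 0.17 in parental cells, opposite to the direction that its label implies. Dusp5, another phosphatase of MAP kinases, had -0.54, and Dusp1 had 0.33. Secreted and matrix genes with a rise in inducible cells beyond that in parental cells were Ptx3 at 0.57 and Aspn at 0.45, and Tmem119, a membrane protein, was at 0.46. Aldh1a7 had 0.65, Deptor 0.51, Mylip, which marks the LDL receptor for degradation, 0.42, Eno3 0.37, Dhcr7, the last enzyme of cholesterol synthesis, 0.36 and Tapbp, a chaperone of MHC class I loading, 0.33. Axl, a receptor tyrosine kinase, and Ndrg1 fell more in inducible cells, with -0.25 and -0.26.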

How the results depend on the processing

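The counts of calls depended on the setting. Across the alternatives for the 63 named genes, 1075 values kept their direction and side of the threshold, 296 lost the call, 13 gained it and 0 reversed; many of these alternatives leave the fold change itself as it was, and the genes were chosen for their size, so this is no sign of stability. The labels give all groups the same replicate numbers. Same-numbered arrays of a line had deviations that correlated at -0.27 to 0.21, which shows no clear pairing within a line. With so few arrays this cannot exclude that same-numbered arrays were handled together, and pairing across the lines was not examined. With the number as a replicate block, 110 genes were called for the mean effect (60 higher, 50 lower). Of shared genes there were 58 (25 of them lower), and 0 passed the stricter test of both lines. Counts given below as in both lines are of that test. With the block within each line, 139 were called for the mean effect (65 higher) and 77 were shared. The stricter test then called 0, the difference 59 and the parental cells 0. Without the lowest 40% of levels, 333 were called (181 lower), 84 were shared downward and 8 called in parental cells. An intensity trend gave 10 in parental cells. Array weights gave 685 (313 higher, 372 lower), 289 shared (122 and 167), 375 for the difference, 736 in inducible and 106 in parental cells. Subtracted array medians gave 97 shared genes and 0 in the stricter test of both lines. Repeated quantile normalization gave 78 shared upward and 8 in parental cells. At the nominal p of the methods' analysis, 2120 were called (1046 higher, 1074 lower), 223 shared (101 and 122), 223 in both lines, 1473 for the difference, 2034 in inducible and 1415 in parental cells. After adjustment, the same tests called 71 (31 and 40), 44 shared (19 and 25), 31 for the difference, 0 in both lines and 0 in parental cells. Each line fitted alone gave 2 in parental cells and 0 in both. A model with 1 RSL term called 82. Asking for the same sign only gave 190 shared genes, and for p under 0.01 in each line 54.

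Leaving out 1 array gave 89 to 293 calls for the mean effect (45 to 121 higher, 39 to 172 lower), 42 to 153 shared (22 to 56 higher, 20 to 97 lower), 56 to 144 for the difference, 0 to 1 in both lines, 204 to 457 in inducible and 1 to 12 in parental cells. The cause of these shifts was not tested. With 3 arrays a group and effects near 0.15, many shared genes lie close to the threshold, and signal near the array background further limits low genes.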
